A study of Saccharomyces cerevisiae with 12 samples.

Results

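The 4 libraries labelled cyc8 snf2 were compared with the 3 libraries labelled wild type (wt) across the nuclear genes of budding yeast, Saccharomyces cerevisiae. They were chosen by their labels and are 7 of the 12 libraries of the series. The table of read counts held 7095 nuclear gene rows, of which 6152 had enough counts to be tested. The series asks how a corepressor and a chromatin remodeller act against each other in transcription, and this comparison gives the net state of cells that carry mutations in both.

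The wt strain was BY4741, of mating type a, with the alleles his3del1, leu2del0, met15del0 and ura3del0. The cyc8 snf2 strain was YDB1.7, a derivative of FY2083 that is also of mating type a, with his3del200, ura3del0, trp1-del63, lys2del0 and met15del0, with SNF2 disrupted by the LEU2 marker and CYC8 by the URA3 marker. Both groups share a met15 and a ura3 deletion allele. The strain background therefore differed together with both mutations, and an effect of the background and an effect of the mutations cannot be told apart in this comparison. The series also holds 2 libraries labelled snf2 (FY2083 with the same SNF2 disruption) and 3 labelled cyc8 (YAFTCD4, which is BY4741 with cyc8::KAN). Their levels are given beside those of named genes, since the snf2 libraries share the FY2083 background with the cyc8 snf2 libraries. All cells grew to log phase at 30 °C in YPD, a rich medium with 2% glucose, and the RNA was depleted of ribosomal RNA. Each strain is 1 line, and whether its libraries are separate cultures is not stated in the labels. P-values therefore measure only how much these libraries vary, and that variation may be technical.

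Cyc8 (also called Ssn6) and Tup1 form a corepressor that has no DNA-binding part of its own. Sequence-specific repressors such as Mig1, Nrg1, Rox1 and Crt1 bring it to promoters of genes for other sugars, cell surface proteins, hypoxia and DNA damage, and glucose, oxygen or mating type decide which of them act. Snf2 provides the ATPase activity of Swi-Snf, a complex that moves and evicts nucleosomes and is needed for the induction of many of the same genes, among them those for invertase and acid phosphatase.

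Levels are library-scaled counts (CPM, normalised read counts), with library sizes scaled by the TMM method. They are given in the order of the replicate numbers, and differences as log2 fold changes of cyc8 snf2 over wt ± SE with the adjusted p of edgeR's quasi-likelihood test. A change given as a fold is the ratio of the mean CPM of both groups, which can differ slightly from the fitted value. Calls of higher or lower needed both a change of 2-fold or more and an adjusted p under 0.05. The wt libraries held 19940399 to 23965732 counts and the cyc8 snf2 libraries 16378131 to 21159408. Between replicates, 128 to 314 genes were at least 2-fold apart in pairs of wt libraries and 108 to 193 in pairs of cyc8 snf2 libraries. As the samples are bulk RNA, fewer cells with a transcript and less transcript per cell cannot be told apart.

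The labels were checked first. SNF2 (chromosome XV, 855147 to 860258) had 84.3, 85.3 and 70.6 CPM in the wt libraries and 109, 103, 113 and 110 in the cyc8 snf2 libraries. For CYC8, on chromosome II from 462616 to 465972, the levels were 78.8, 82.5 and 69.9 CPM in wt and 52.2, 55.0, 50.0 and 55.5 in cyc8 snf2. Neither transcript was lost. The labels do not state how much of either gene was removed, and the libraries are called by their labels throughout. The markers LEU2, URA3, LYS2 and HIS3 do follow the labels. LEU2 had 0 to 3 counts per wt library against 3203 to 6332 in cyc8 snf2, and URA3 had 0 or 1 count against 307 to 365. LYS2 fell from 3215 to 4093 counts per wt library to 4 to 7, and HIS3 from 947 to 1099 counts to 0 to 2. These marker genes report the genotype, not a response. TRP1, for which the cyc8 snf2 strain carries the allele trp1-del63, was not called in either direction, and its level is not given here. The part of FY2083 in each other result was not tested, since no wt library of that background was analysed here. No chromosome stood apart: the median log2 fold change of the tested genes of a chromosome lay between -0.09 (chromosome X) and 0.09 (chromosome IX).

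Of the 6152 genes tested, 588 were higher in cyc8 snf2 than in wt (9.56%) and 245 were lower (3.98%), while the median log2 fold change over all of them was -0.03. The higher genes changed by a median of 1.84 on the log2 scale and the lower genes by a median of 1.62, and 130 of the higher and 54 of the lower genes changed by at least 3. Leaving out the 4 marker genes, the higher genes had a median level of 4.73 CPM in wt and 22.0 CPM in cyc8 snf2. The lower genes had a median of 32.3 CPM in wt and 6.93 CPM in cyc8 snf2. Of the 588 higher genes 173 had under 1 CPM in wt. For 3097 genes (50.3%) the libraries of the groups did not overlap, so that a lack of overlap alone distinguishes no gene here. Protein-coding genes made up 5704 of the 6152 genes tested, 500 of the 588 higher and 209 of the 245 lower genes. Rows not matched to a reference gene made up 287 of the genes tested, 67 of the higher and 18 of the lower.

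**Figure D1:**
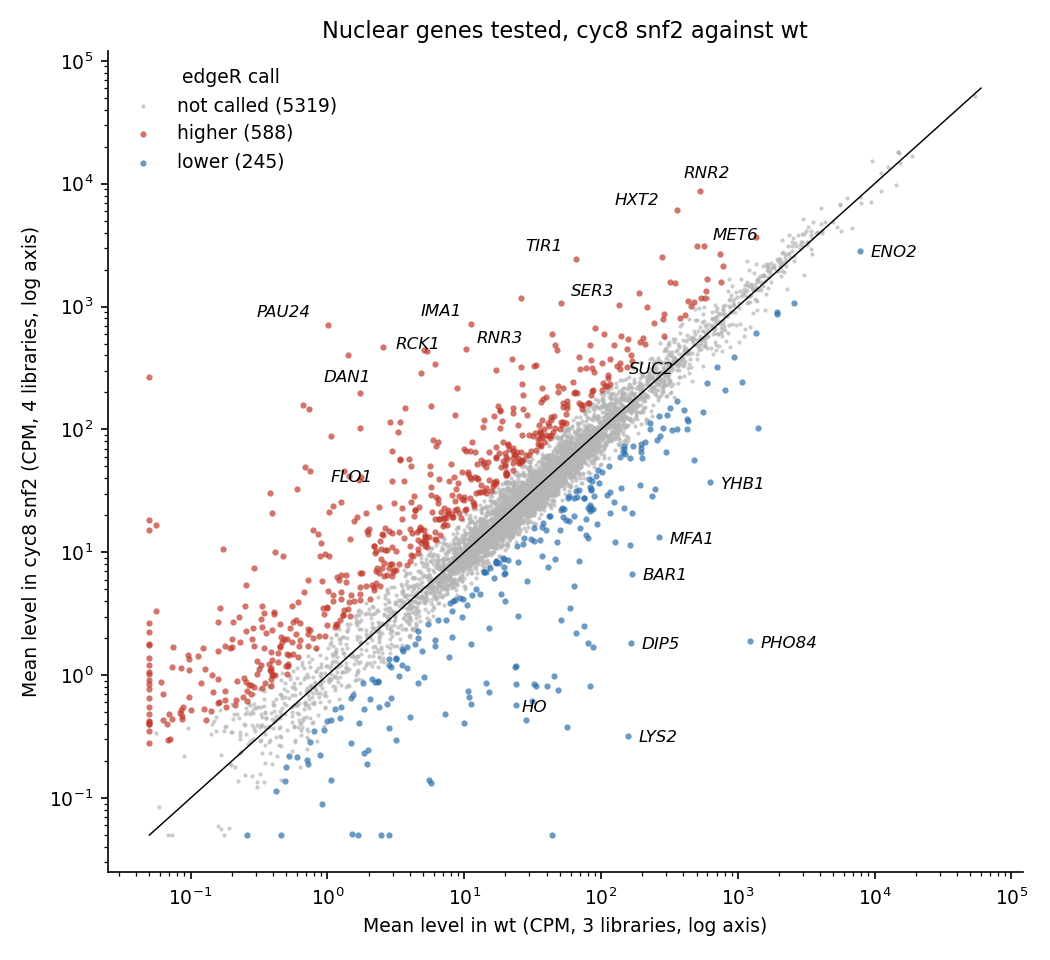
Mean level of each of the 6152 nuclear genes tested in the 3 wt libraries (x axis, CPM, log scale) and the 4 cyc8 snf2 libraries (y axis, CPM, log scale), with the diagonal marking equal levels. Levels under 0.05 CPM are drawn at 0.05, red points are the 588 genes called higher, blue points the 245 called lower, and grey points were not called. PAU24, DAN1, IMA1 and RNR2 lie far above the diagonal, and PHO84, DIP5, BAR1 and MFA1 far below it.

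Genes of the corepressor and the remodeller themselves changed little. None of the 12 Swi-Snf subunit genes, of 9 genes for Tup1-Cyc8, histone deacetylases and the Mediator kinase module, or of 20 genes for other remodellers and SAGA was called in either direction. TUP1, the partner of CYC8, had 241, 247 and 244 CPM in wt and 228, 218, 221 and 209 in cyc8 snf2 (log2 fold change -0.16 ± 0.06, edgeR adjusted p = 0.052). The genes of the DNA-binding repressors that bring the corepressor to DNA gave another picture: 7 of 14 were higher and none was lower, with a median log2 fold change of 1.02. NRG1, which encodes a repressor of genes for sugars other than glucose, had 40.1, 37.8 and 22.8 CPM in wt and 324, 346, 335 and 332 in cyc8 snf2. Every cyc8 snf2 library was above every wt library (log2 fold change 3.32 ± 0.17, edgeR adjusted p = 9.08e-09). YAP6, for a bZIP protein, rose from 2.42 to 4.89 CPM in wt to 37.1 to 38.6 CPM in cyc8 snf2 (log2 fold change 3.39 ± 0.16). SUT1, for a regulator of sterol uptake, rose from 15.2 to 18.1 CPM to 107 to 146 CPM (2.96 ± 0.12), and NRG2, the paralog of NRG1, from 22.8 to 34.4 CPM to 123 to 141 CPM (2.20 ± 0.13). In the snf2 libraries NRG1 averaged 15.4 CPM and YAP6 11.9 CPM.

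Genes for the use of sugars other than glucose stood higher in cyc8 snf2 although the medium held glucose. Of 11 tested genes for maltose, isomaltose and sucrose use, 10 were called higher and none lower, with a median log2 fold change of 2.71. IMA1, an isomaltase (chromosome VII, 1067004 to 1069099), had 11.7, 12.6 and 9.39 CPM in wt and 772, 677, 719 and 693 in cyc8 snf2. The groups were far apart (63.8-fold higher, edgeR adjusted p = 1.35e-13). IMA2, a related isomaltase, had 4.73, 6.32 and 4.26 CPM in wt and 435, 450, 471 and 424 in cyc8 snf2 (log2 fold change 6.45 ± 0.13). MAL12, a maltase, rose from 1.17 to 2.09 CPM to 158 to 227 CPM (6.83 ± 0.20). The snf2 means of these genes were low, at 17.6 CPM for IMA1, 10.7 for IMA2 and 2.26 for MAL12, and the cyc8 means were 897, 588 and 252 CPM. Family members share sequence, with 52.4% of the 50-base words of IMA2 and 75.2% of those of MAL12 found elsewhere in the genome, so that the reads of a family may be split among its members.

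The promoters of IMA1 and IMA2 are shown because both genes rose far above wt and both windows hold the letters GTGGGG, the core bound by the repressor Mig1. Each sequence is the 250 bases before the start of the deposited gene model, read 5′ to 3′ on the strand of the gene from the RefSeq genome of build R64, and capitals mark the motif on either strand.
IMA1, chrVII:1069100-1069349, minus strand: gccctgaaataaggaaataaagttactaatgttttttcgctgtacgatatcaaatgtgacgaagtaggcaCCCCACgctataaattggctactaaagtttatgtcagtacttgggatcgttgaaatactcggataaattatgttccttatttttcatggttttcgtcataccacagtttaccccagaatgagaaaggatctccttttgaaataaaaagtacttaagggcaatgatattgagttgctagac
IMA2, chrXV:24485-24734, minus strand: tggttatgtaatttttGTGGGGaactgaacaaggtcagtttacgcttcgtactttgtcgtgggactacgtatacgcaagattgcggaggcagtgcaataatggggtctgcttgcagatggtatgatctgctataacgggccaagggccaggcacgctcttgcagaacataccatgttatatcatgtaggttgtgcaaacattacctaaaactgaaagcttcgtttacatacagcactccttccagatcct
The matches begin at -180 in IMA1 and -234 in IMA2, counted from the first base of the gene model, which itself begins 108 bases before the coding sequence in IMA1 and 190 before it in IMA2. GTGGGG, on either strand, was present in 6 of the 11 promoters of the sugar genes and in 4.01% of the 5704 promoters of tested protein-coding genes. It was in 9% of the promoters of the 500 protein-coding genes called higher and in 0.957% of the 209 called lower. GCGGGG, the other form of this core that was searched, was in 3.10% of all promoters, 7.80% of those of higher genes and 2.39% of those of lower genes. These matches are a description of the sequence only. Family members share sequence, and whether their promoter windows do was not measured, so the 11 sugar gene promoters need not be separate cases.

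SUC2 encodes invertase, which splits sucrose. This gene (chromosome IX, 37316 to 39203) had 125, 121 and 102 CPM in wt and 325, 391, 388 and 383 in cyc8 snf2. All 4 cyc8 snf2 libraries were above the wt libraries, by a log2 fold change of 1.68 ± 0.10 (edgeR adjusted p = 6.23e-09). SUC2 averaged 122 CPM in snf2 and 5600 CPM in cyc8, and the cyc8 snf2 libraries lay 3.91 log2 units below cyc8 (adjusted p of that difference = 4.3e-12).

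Hexose transporters, which carry glucose and related sugars into the cell, were the other large group of sugar genes that rose. Of 14 tested members, 11 were higher and none was lower, with a median log2 fold change of 3.05, or 2.63 when a member without wt counts is set at its lower bound. Their summed level was 1858 to 2185 CPM in the wt libraries and 10569 to 12543 CPM in the cyc8 snf2 libraries. HXT2, a transporter of high affinity, had 382, 296 and 398 CPM in wt and 6041, 6554, 5991 and 6040 in cyc8 snf2 (log2 fold change 4.10 ± 0.11, edgeR adjusted p = 3.76e-12). HXT13 rose from 0.0835 to 0.523 CPM to 4.02 to 7.94 CPM and HXT17 from 0.0951 to 0.401 CPM to 5.62 to 9.18 CPM. Both stayed far under their cyc8 means of 361 and 610 CPM. HXT15 had no count in wt and 48 counts in the cyc8 snf2 libraries together, at least 5.07-fold higher when the wt is set at 3 counts per library. Of 10 genes for glucose sensing and the Snf1 kinase, RGT2, a glucose sensor, and MTH1, which helps to repress hexose transporter genes, were higher (from 17.2 to 22.3 CPM to 48.0 to 54.7 CPM and from 27.2 to 57.9 CPM to 114 to 137 CPM).

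For gluconeogenesis and the use of organic acids, 10 of 19 genes were higher and 1 was lower, with a median log2 fold change of 1.04. JEN1, the lactate carrier, rose from 4.76 to 7.62 CPM in wt to 71.4 to 74.9 CPM in cyc8 snf2 (3.56 ± 0.13), and YAT1, a carnitine acetyltransferase, from 2.97 to 5.01 CPM to 26.6 to 31.3 CPM (2.77 ± 0.15). The exception was CIT2, the peroxisomal citrate synthase of the retrograde pathway. It had 168, 216 and 125 CPM in wt and 21.1, 20.3, 22.4 and 19.2 in cyc8 snf2, with no overlap (log2 fold change -3.03 ± 0.15, edgeR adjusted p = 2.74e-09). The snf2 mean of CIT2 was 428 CPM and the cyc8 mean 19.1 CPM. Of 26 respiratory chain genes 2, QCR9 and COX8, passed the 2-fold threshold, which both missed without wt replicate 3 (0.84 and 0.94), near the background share, while the median log2 fold change was 0.86. Their summed level was 3117 to 3912 CPM in wt and 6164 to 6797 CPM in cyc8 snf2. Of 21 genes for glycolysis and fermentation, 2 were higher and 2 lower, and 17 were not called. That is 9.52% in each direction, against 9.56% higher and 3.98% lower among all genes tested. ENO2, the main enolase, had 7955, 7210 and 8473 CPM in wt and 2839, 2917, 2982 and 2639 in cyc8 snf2 (log2 fold change -1.47 ± 0.12), and GPM1, phosphoglycerate mutase, fell from 2544 to 2640 CPM to 1049 to 1093 CPM (-1.27 ± 0.08). Another gene model on the same strand overlaps 80.5% of that of ENO2 and 42.9% of that of GPM1, and the assignment of reads in such stretches is not stated in the labels. HXK1, a hexokinase that is off in glucose, rose (1.90 ± 0.23), as did the minor pyruvate decarboxylase gene PDC6 (2.72 ± 0.33, or 3.34 without wt replicate 2).

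**Figure D2:**
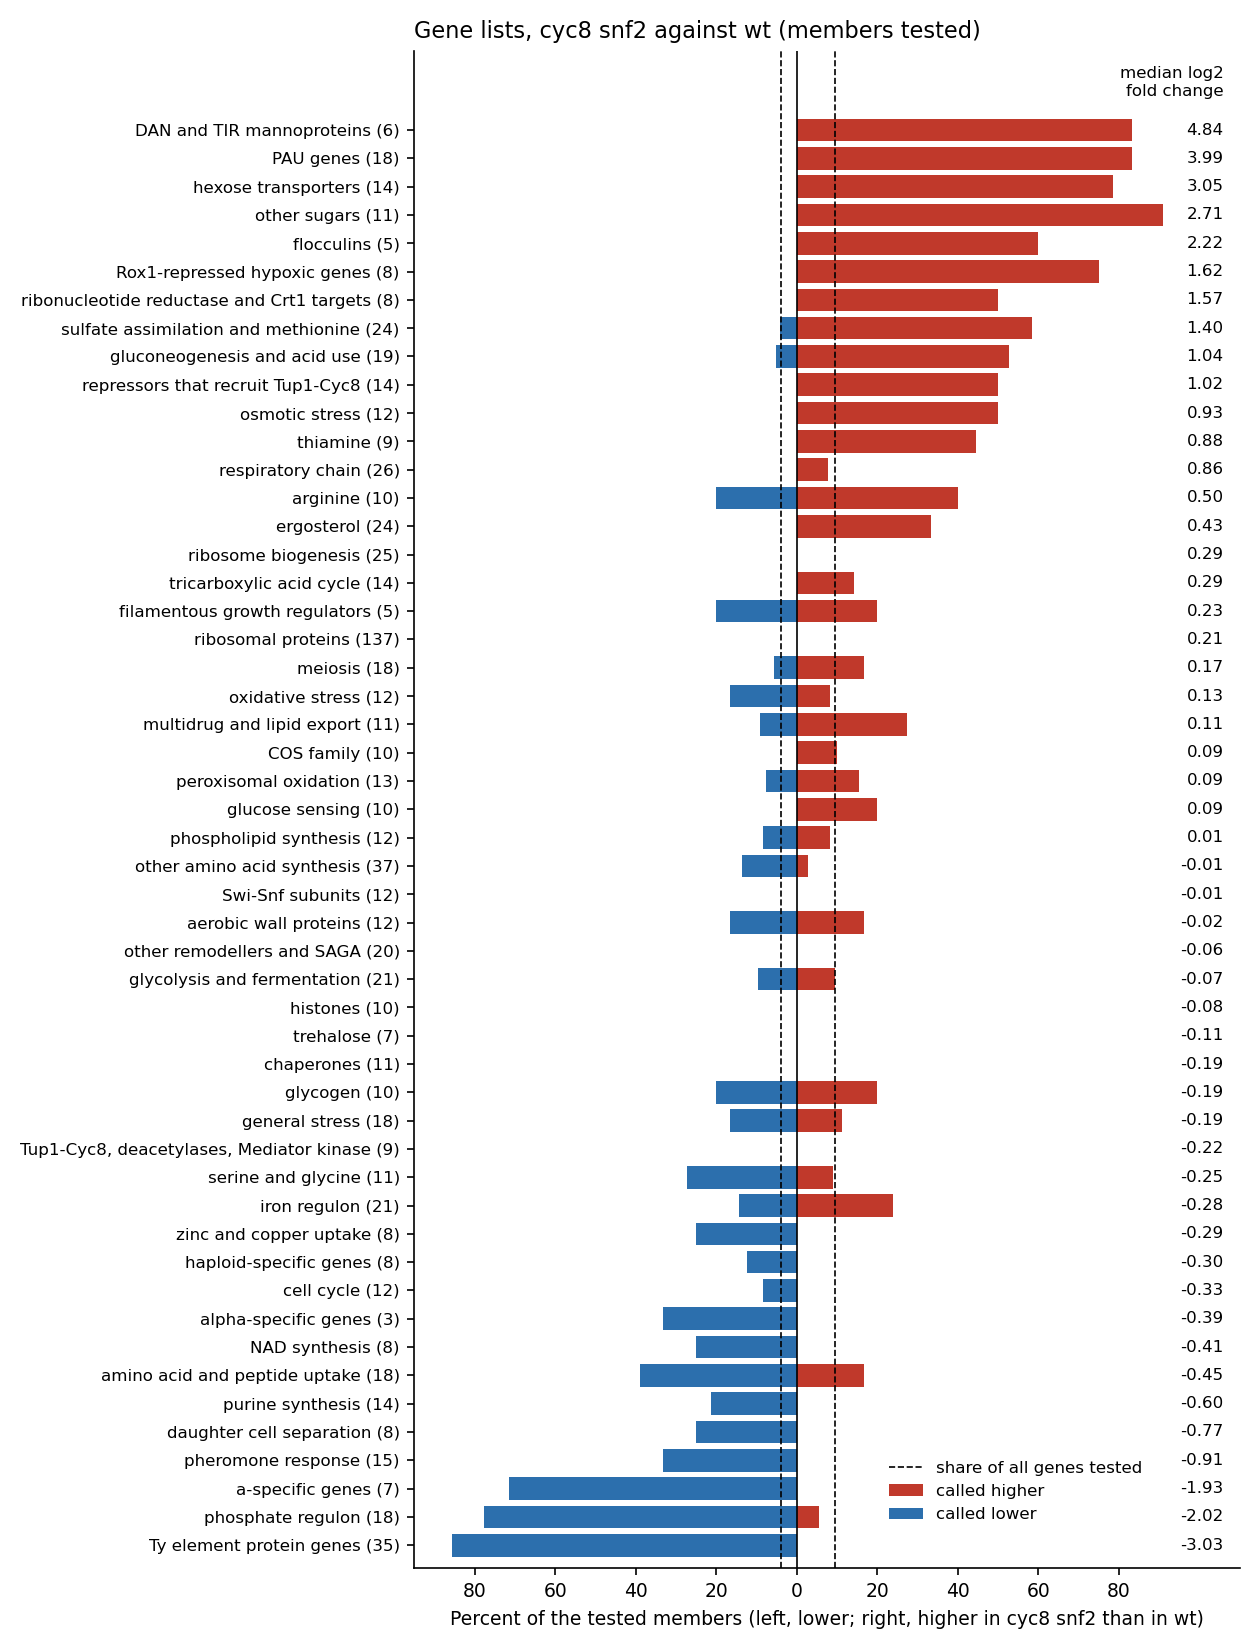
Share of the tested members of each gene list called higher (red, to the right) or lower (blue, to the left) in cyc8 snf2 than in wt, in percent, with the number of members tested in brackets and the median log2 fold change at the right. Dashed lines mark the shares over all 6152 genes tested, 9.56% higher and 3.98% lower. Lists of cell surface and sugar genes stand at the top and those of phosphate, a-specific and Ty element genes at the bottom, and several lists of chromatin and ribosome genes have no bar.

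At the cell surface, the mannoproteins that yeast makes under low oxygen gave the highest list medians. Of 6 DAN and TIR genes 5 were higher, with a median log2 fold change of 4.84, and of 18 tested seripauperin (PAU) genes 15 were higher, with a median of 3.99. None of either list was lower. The other 6 PAU genes were not tested: they had no count in wt and 26 counts in the cyc8 snf2 libraries together. DAN1 (chromosome X, 708704 to 709885) had 2.69, 0.666 and 0.918 CPM in wt and 514, 354, 411 and 328 in cyc8 snf2. Every cyc8 snf2 library was far above every wt library (log2 fold change 8.10 ± 0.37, edgeR adjusted p = 1.15e-08). Without wt replicate 1 it was 8.96. TIR1 had 70.3, 72.0 and 53.3 CPM in wt and 2622, 2314, 2461 and 2284 in cyc8 snf2 (5.21 ± 0.14). Their means were 1220 and 6007 CPM in cyc8, and 0.185 and 3.02 CPM in snf2.

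PAU24 (also DAN3, chromosome II, 809057 to 809419) had 1.24, 0.856 and 0.918 CPM in wt and 859, 758, 676 and 534 in cyc8 snf2, a log2 fold change of 9.44 ± 0.36 (edgeR adjusted p = 1.26e-09). A gene model on the opposite strand covers 93.4% of PAU24, and 52.9% of its 50-base words occur elsewhere. PAU12 rose from 0.523 to 0.762 CPM to 128 to 180 CPM, and PAU13 from 0.417 to 0.882 CPM to 47.5 to 53.6 CPM. Each of these 3 genes stayed below its cyc8 mean, which was 8338, 1541 and 3150 CPM in the same order.

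Flocculins are wall lectins that make cells clump, and 3 of 5 were higher (median log2 fold change 2.22) and none was lower. FLO9 had 3.53, 3.09 and 3.55 CPM in wt and 103, 121, 112 and 122 in cyc8 snf2 (log2 fold change 5.07 ± 0.10). FLO10 rose from 5.01 to 6.09 CPM to 31.8 to 48.7 CPM (2.94 ± 0.17). FLO1, the dominant flocculin gene of laboratory strains that clump (chromosome I, 203403 to 208016), had 3.45, 5.09 and 4.34 CPM in wt and 21.0, 20.9, 21.5 and 16.1 in cyc8 snf2 (2.22 ± 0.14, edgeR adjusted p = 1.66e-08). Groups did not overlap for any of these genes, as for 50.3% of all genes tested, and the cyc8 mean of FLO1 was 722 CPM. FLO11, the adhesin of filamentous growth, missed the 2-fold threshold with a log2 fold change of 0.86 ± 0.24, and reached it without cyc8 snf2 replicate 3. The repeats inside these genes and between them (53.8% of the words of FLO1 and 63.4% of those of FLO9) make the split of reads among members uncertain.

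Wall proteins of aerobic growth did not move one way. Of 12 tested, 2 were higher and 2 lower (16.7% in each direction, against 9.56% higher and 3.98% lower among all genes tested). CWP1, a mannoprotein, rose from 104 to 188 CPM in wt to 667 to 1274 CPM in cyc8 snf2 (2.92 ± 0.27), and CIS3 rose by 1.03 ± 0.09, or 0.95 with upper-quartile scaling, which is under the threshold. TIP1, a cold-shock mannoprotein, fell from 213 to 359 CPM to 55.7 to 82.6 CPM (-2.20 ± 0.18), although its cyc8 mean was 2090 CPM, and its snf2 mean was 20.9 CPM. YGP1, a secreted glycoprotein of nutrient limitation, fell from 72.0 to 154 CPM to 10.3 to 13.2 CPM (-3.38 ± 0.26).

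Ribonucleotide reductase makes the precursors of DNA, and its genes are held down by Crt1 until DNA is damaged. Of 8 genes in this list, 4 were higher and none was lower (median log2 fold change 1.57). RNR2, a subunit gene (chromosome X, 392210 to 393762), had 538, 541 and 516 CPM in wt and 9657, 8700, 8567 and 8065 in cyc8 snf2. The groups were separated by far more than their spread (4.04 ± 0.10, edgeR adjusted p = 1.37e-12, which is 16.5-fold). RNR3, the damage-induced large subunit gene (chromosome IX, 237955 to 241732), had 11.2, 8.18 and 11.5 CPM in wt and 509, 411, 454 and 419 in cyc8 snf2 (43.6-fold higher, with an SE of 0.14 around a log2 change of 5.44). HUG1, which encodes a small inhibitor of the enzyme, had 6.09, 3.42 and 6.55 CPM in wt and 520, 410, 413 and 383 in cyc8 snf2 (log2 fold change 6.32 ± 0.24). Against cyc8, HUG1 was higher in cyc8 snf2 by 0.77 log2 units (edgeR adjusted p = 0.0107). RNR3 fell by 0.36 against cyc8 (edgeR adjusted p = 0.0375), and RNR2 differed from it by 0.15 (edgeR adjusted p = 0.228).

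The hypoxic genes that Rox1 represses in air were higher in 6 of 8 cases and lower in none (median log2 fold change 1.62). ANB1, which encodes the eIF5A made without oxygen (chromosome X, 524797 to 525504), had 50.2, 45.0 and 35.9 CPM in wt and 673, 595, 591 and 525 in cyc8 snf2. The log2 fold change was 3.77 ± 0.15 (edgeR adjusted p = 2.67e-10), and the snf2 mean of 15.7 CPM was below wt. HEM13, for a heme synthesis enzyme that uses oxygen, had 209, 233 and 124 CPM in wt and 1817, 1239, 1230 and 905 in cyc8 snf2 (2.78 ± 0.26). AAC3 and CYC7, the hypoxic forms of the ATP carrier and of cytochrome c, rose by 1.93 ± 0.16 and 1.77 ± 0.39. The ANB1 promoter is shown because it holds the core searched for Rox1, ATTGTT, in 4 copies on the strand of the gene, marked in capitals, in the 250 bases before the gene model.
ANB1, chrX:525505-525754, minus strand: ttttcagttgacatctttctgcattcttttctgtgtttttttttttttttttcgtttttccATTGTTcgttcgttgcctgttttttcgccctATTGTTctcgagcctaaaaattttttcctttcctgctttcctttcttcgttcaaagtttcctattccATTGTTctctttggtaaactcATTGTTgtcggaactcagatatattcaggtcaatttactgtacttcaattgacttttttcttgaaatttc
The copies begin at -189, -158, -91 and -70. ATTGTT on either strand was in 6 of the 8 promoters of this list, against 28.8% of all 5704 and 25% of those of the higher genes, so that a match of these letters is common.

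Of 24 genes for ergosterol synthesis and sterol uptake, 8 were higher and none was lower, although the median log2 fold change was only 0.43. ERG25, a C-4 methyl oxidase that uses oxygen, had 312, 302 and 350 CPM in wt and 1679, 1491, 1685 and 1432 in cyc8 snf2 (2.29 ± 0.10). UPC2, the activator of sterol uptake, rose by 2.12 ± 0.10, and the sterol transporter genes PDR11 and AUS1 by 2.08 ± 0.11 and 1.96 ± 0.08. For all 4 genes, chosen for the size of their change, the wt and cyc8 snf2 libraries were apart, as for 50.3% of all genes tested.

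In the osmotic stress list 6 of 12 were higher and none lower (median log2 fold change 0.93). Of 18 general stress genes 2 were higher (11.1%, near the 9.56% of all genes tested) and 3 lower (16.7%, against 3.98%). RCK1, a kinase of the oxidative and osmotic stress response (chromosome VII, 206645 to 208696), had 3.33, 3.09 and 1.29 CPM in wt and 360, 535, 503 and 468 in cyc8 snf2 (7.50 ± 0.28, edgeR adjusted p = 8.38e-10). STL1, a glycerol importer, rose from 0.238 to 0.521 CPM to 16.2 to 24.3 CPM (5.70 ± 0.24), and ENA1, a sodium pump in a repeated gene cluster, from 2.42 to 4.53 CPM to 137 to 163 CPM (5.33 ± 0.17). HSP12, a small membrane-associated stress protein, had 25.6, 15.2 and 26.1 CPM in wt and 249, 435, 311 and 504 in cyc8 snf2 (4.07 ± 0.28). HSP30, a plasma membrane heat shock protein, fell, with 428, 149 and 129 CPM in wt and 39.0, 25.2, 24.7 and 25.5 in cyc8 snf2 (-3.04 ± 0.39, or -2.28 without wt replicate 1). Of 12 oxidative stress genes 1 was higher (8.33%, near the 9.56% of all genes tested), 2 were lower (16.7%, against 3.98%) and 9 were not called. GPX2, a glutathione peroxidase, fell from 50.9 to 85.7 CPM to 3.06 to 7.20 CPM (-3.57 ± 0.24). OYE3, an NADPH oxidoreductase, rose from 2.50 to 3.57 CPM to 30.7 to 43.4 CPM (3.66 ± 0.15). Of 10 glycogen genes 2 were higher, 2 lower and 6 not called. That is 20% in each direction, against 9.56% higher and 3.98% lower among all genes tested. Their summed level differed among the wt libraries, from 936 to 2246 CPM. GAC1, a targeting subunit of the phosphatase that activates glycogen synthase, rose (3.22 ± 0.40). Both synthase genes, GSY1 and GSY2, fell (-1.61 ± 0.34 and -1.47 ± 0.24). None of 11 chaperone genes and none of 7 trehalose genes was called.

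Sulfur genes rose. Of 24 genes for sulfate assimilation and methionine, 14 were higher and 1 was lower, with a median log2 fold change of 1.4, and both strains carry a met15 deletion allele. In the snf2 libraries, of the FY2083 background, 17 of the 24 were higher than wt and 1 was lower, where 4.21% and 5.4% of all genes tested were (9.61% in either direction). In cyc8, of the BY4741 background, 11 were higher and 1 was lower, against 10.4% and 3.48% of all genes tested. MET6, methionine synthase (chromosome V, 339639 to 342408), had 474, 563 and 670 CPM in wt and 2604, 3497, 3479 and 2818 in cyc8 snf2 (2.45 ± 0.15, edgeR adjusted p = 1.11e-08), with a snf2 mean of 3886 CPM. MET3, ATP sulfurylase, rose from 16.5 to 20.4 CPM to 92.7 to 134 CPM (2.63 ± 0.21), although a gene model on the opposite strand covers it. MET2, which makes O-acetylhomoserine, rose from 5.42 to 7.18 CPM to 38.4 to 41.1 CPM (2.60 ± 0.12), and MMP1, an S-methylmethionine carrier, from 13.2 to 24.9 CPM to 90.2 to 115 CPM (2.49 ± 0.18). The letters CACGTG, to which Cbf1 of the sulfur genes and Pho4 of the phosphate genes bind, were in 9 of 24 sulfur promoters and 7 of 18 phosphate promoters, against 3.93% of all 5704. Since the sulfur genes rose and the phosphate genes fell, 1 promoter of a sulfur gene and 2 of phosphate genes are shown together, with CACGTG in capitals, in the same window of 250 bases.
MET2, chrXIV:116936-117185, plus strand: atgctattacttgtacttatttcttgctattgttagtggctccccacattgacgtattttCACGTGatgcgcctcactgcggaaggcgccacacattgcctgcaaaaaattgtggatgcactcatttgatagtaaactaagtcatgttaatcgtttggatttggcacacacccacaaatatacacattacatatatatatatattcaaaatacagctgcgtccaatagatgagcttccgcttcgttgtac
PHM6, chrIV:1022437-1022686, minus strand: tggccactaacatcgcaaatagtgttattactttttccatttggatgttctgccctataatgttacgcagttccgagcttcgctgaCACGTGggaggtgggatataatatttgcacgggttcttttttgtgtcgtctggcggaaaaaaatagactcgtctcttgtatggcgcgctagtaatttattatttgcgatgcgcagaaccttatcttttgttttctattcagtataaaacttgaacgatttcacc
SPL2, chrVIII:375310-375559, minus strand: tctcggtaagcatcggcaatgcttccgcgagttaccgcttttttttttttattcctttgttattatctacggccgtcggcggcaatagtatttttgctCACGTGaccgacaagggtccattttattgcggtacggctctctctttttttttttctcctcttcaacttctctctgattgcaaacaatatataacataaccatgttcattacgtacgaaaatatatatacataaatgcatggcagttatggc
The motif begins at -190 in MET2, -164 in PHM6 and -152 in SPL2. Its share was 4.40% among promoters of the higher genes and 5.74% among those of the lower genes, both near that of all promoters.

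The phosphate regulon, which yeast uses to take up and store phosphate, fell. Of 18 genes 14 were lower and 1 was higher, with a median log2 fold change of -2.02, and their summed level was 3908 to 4342 CPM in wt and 881 to 897 CPM in cyc8 snf2. PHO84, the high-affinity phosphate transporter (chromosome XIII, 23886 to 25919), had 1175, 1104 and 1426 CPM in wt and 2.59, 2.06, 1.15 and 1.73 in cyc8 snf2. No cyc8 snf2 library came near a wt library (log2 fold change -9.33 ± 0.48, edgeR adjusted p = 4.03e-08), and gene models on the opposite strand cover PHO84 completely. SPL2, an inhibitor of low-affinity phosphate transport, had 91.5, 83.4 and 89.2 CPM in wt and 1.97, 1.91, 1.34 and 1.62 in cyc8 snf2 (-5.67 ± 0.22). PHM6 fell from 23.2 to 37.2 CPM to 0.271 to 0.639 CPM (-6.05 ± 0.24). The acid phosphatase genes PHO5 and PHO12 fell from 53.9 to 94.2 CPM to 2.06 to 3.06 CPM (-4.91 ± 0.29) and from 53.2 to 61.6 CPM to 0.208 to 0.603 CPM (-7.19 ± 0.23), and 87.2% of the words of PHO12 occur elsewhere. PHO89, a sodium-dependent phosphate transporter, was the member that rose and is named after its values were seen. It went from 39.3 to 43.7 CPM to 85.0 to 126 CPM (1.47 ± 0.17). Side by side, 11 of the 18 genes were lower and 1 higher in cyc8, where 3.48% and 10.4% of all genes were, and 14 were lower in snf2, each against the same wt libraries.

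Amino acid genes changed in parts. Of 18 genes for amino acid and peptide uptake, 7 were lower and 3 higher (38.9% and 16.7%, against 3.98% and 9.56% of all genes tested). DIP5, the permease of acidic amino acids (chromosome XVI, 40917 to 43190), had 161, 205 and 132 CPM in wt and 1.87, 1.31, 2.36 and 1.79 in cyc8 snf2, 90.7-fold lower (log2 fold change -6.51 ± 0.21, edgeR adjusted p = 9.31e-11). PUT4, the proline permease, rose from 1.14 to 1.44 CPM to 44.1 to 48.8 CPM (5.10 ± 0.14), and GAP1, the general amino acid permease, from 12.9 to 14.8 CPM to 70.9 to 136 CPM (2.93 ± 0.18). OPT2, an oligopeptide transporter, had a log2 fold change of -4.80 ± 0.65, which was -3.86 without wt replicate 2 and -5.42 without cyc8 snf2 replicate 1. Among synthesis genes outside sulfur, serine and arginine 1 of 37 was higher and 5 were lower, BAT2, the cytosolic branched-chain aminotransferase, by the largest amount (from 182 to 203 CPM to 29.1 to 39.8 CPM, -2.45 ± 0.11). ARO10, a decarboxylase of amino acid breakdown, fell from 27.2 to 39.0 CPM to 0.433 to 0.804 CPM (-5.67 ± 0.19). SER3, which starts serine synthesis from glycolysis (chromosome V, 322213 to 324278), had 61.4, 65.5 and 25.3 CPM in wt and 1301, 1031, 1062 and 924 in cyc8 snf2 (4.41 ± 0.30, edgeR adjusted p = 3.72e-07). Of 11 serine and glycine genes SER3 alone was higher and 3 were lower. Overlapping gene models cover 26.6% of SER3 on the same strand and 17.5% on the other.

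Metal genes also split. In the iron regulon 5 of 21 were higher and 3 lower (23.8% and 14.3%, against 9.56% and 3.98% of all genes tested). FIT3, a wall mannoprotein that holds siderophore iron, rose from 82.5 to 95.8 CPM to 399 to 793 CPM (2.88 ± 0.28). FRE4, a ferric reductase, rose from 3.71 to 7.51 CPM to between 31.4 and 237 CPM, a wide spread (4.75 ± 0.62). TIS11, which degrades transcripts of iron-using proteins, fell (-2.31 ± 0.32), and so did ZRT1, the high-affinity zinc transporter, from 67.2 to 100 CPM to 15.3 to 26.2 CPM (-1.94 ± 0.17). Of 9 thiamine genes 4 were higher and none lower. THI7, the thiamine carrier, rose from 43.9 to 49.6 CPM to 478 to 503 CPM (3.40 ± 0.08). For drug and lipid export 3 of 11 genes were higher (27.3%), 1 was lower (9.09%) and 7 were not called, against the same shares. TPO1, a polyamine exporter, rose (2.50 ± 0.09), as did RSB1, a sphingoid base transporter (3.17 ± 0.15). PDR5, the main drug pump, fell from 814 to 1343 CPM to 205 to 299 CPM (-2.13 ± 0.16).

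Genes of a-type mating fell, although both strains are labelled as mating type a. Of 7 a-specific genes 5 were lower and none higher (median log2 fold change -1.93), of 15 pheromone response genes 5 were lower and none higher (-0.91), and of 8 haploid-specific genes 1 was lower. BAR1, the protease that degrades alpha factor (chromosome IX, 322342 to 324105), had 156, 142 and 209 CPM in wt and 4.57, 6.33, 6.90 and 8.88 in cyc8 snf2 (25.4-fold lower, log2 fold change -4.67 ± 0.21, edgeR adjusted p = 2.88e-09). MFA1, a gene for the a-factor pheromone, had 292, 231 and 273 CPM in wt and 13.4, 11.3, 14.4 and 13.7 in cyc8 snf2 (-4.33 ± 0.12). STE2, the alpha-factor receptor gene, fell from 584, 509 and 565 CPM to 112, 146, 150 and 145 CPM (edgeR adjusted p = 1.26e-09). In these genes no cyc8 snf2 library reached a wt library, and the snf2 means were 38.5, 34.8 and 284 CPM. Against the same wt libraries, 5 of the 7 a-specific genes were lower in cyc8 and 4 in snf2, and none was higher. Of the 15 pheromone response genes 6 were lower in cyc8 (median log2 fold change -0.96). In snf2 4 of them were lower and 1 was higher (median -0.20). FUS1 and FAR1, which act in cell fusion and in arrest for mating, fell by 4.25 ± 0.30 and 2.48 ± 0.10 on the log2 scale. HO, the endonuclease gene of mating-type switching, had 24.7, 29.4 and 43.4 CPM in wt and 0.934, 1.26, 0.256 and 0.920 in cyc8 snf2 (-5.22 ± 0.33). Of 3 tested alpha-specific genes 1 was lower and none higher, and the summed level of the list was 23.9 to 27.5 CPM in wt and 16.5 to 18.9 CPM in cyc8 snf2. STE3, the a-factor receptor gene, fell from 2.50 to 4.04 CPM to 0.256 to 0.325 CPM, and the alpha-factor gene MF(ALPHA)1 averaged 0.205 CPM in wt and 0.438 CPM in cyc8 snf2 and was not called.

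**Figure D3:**
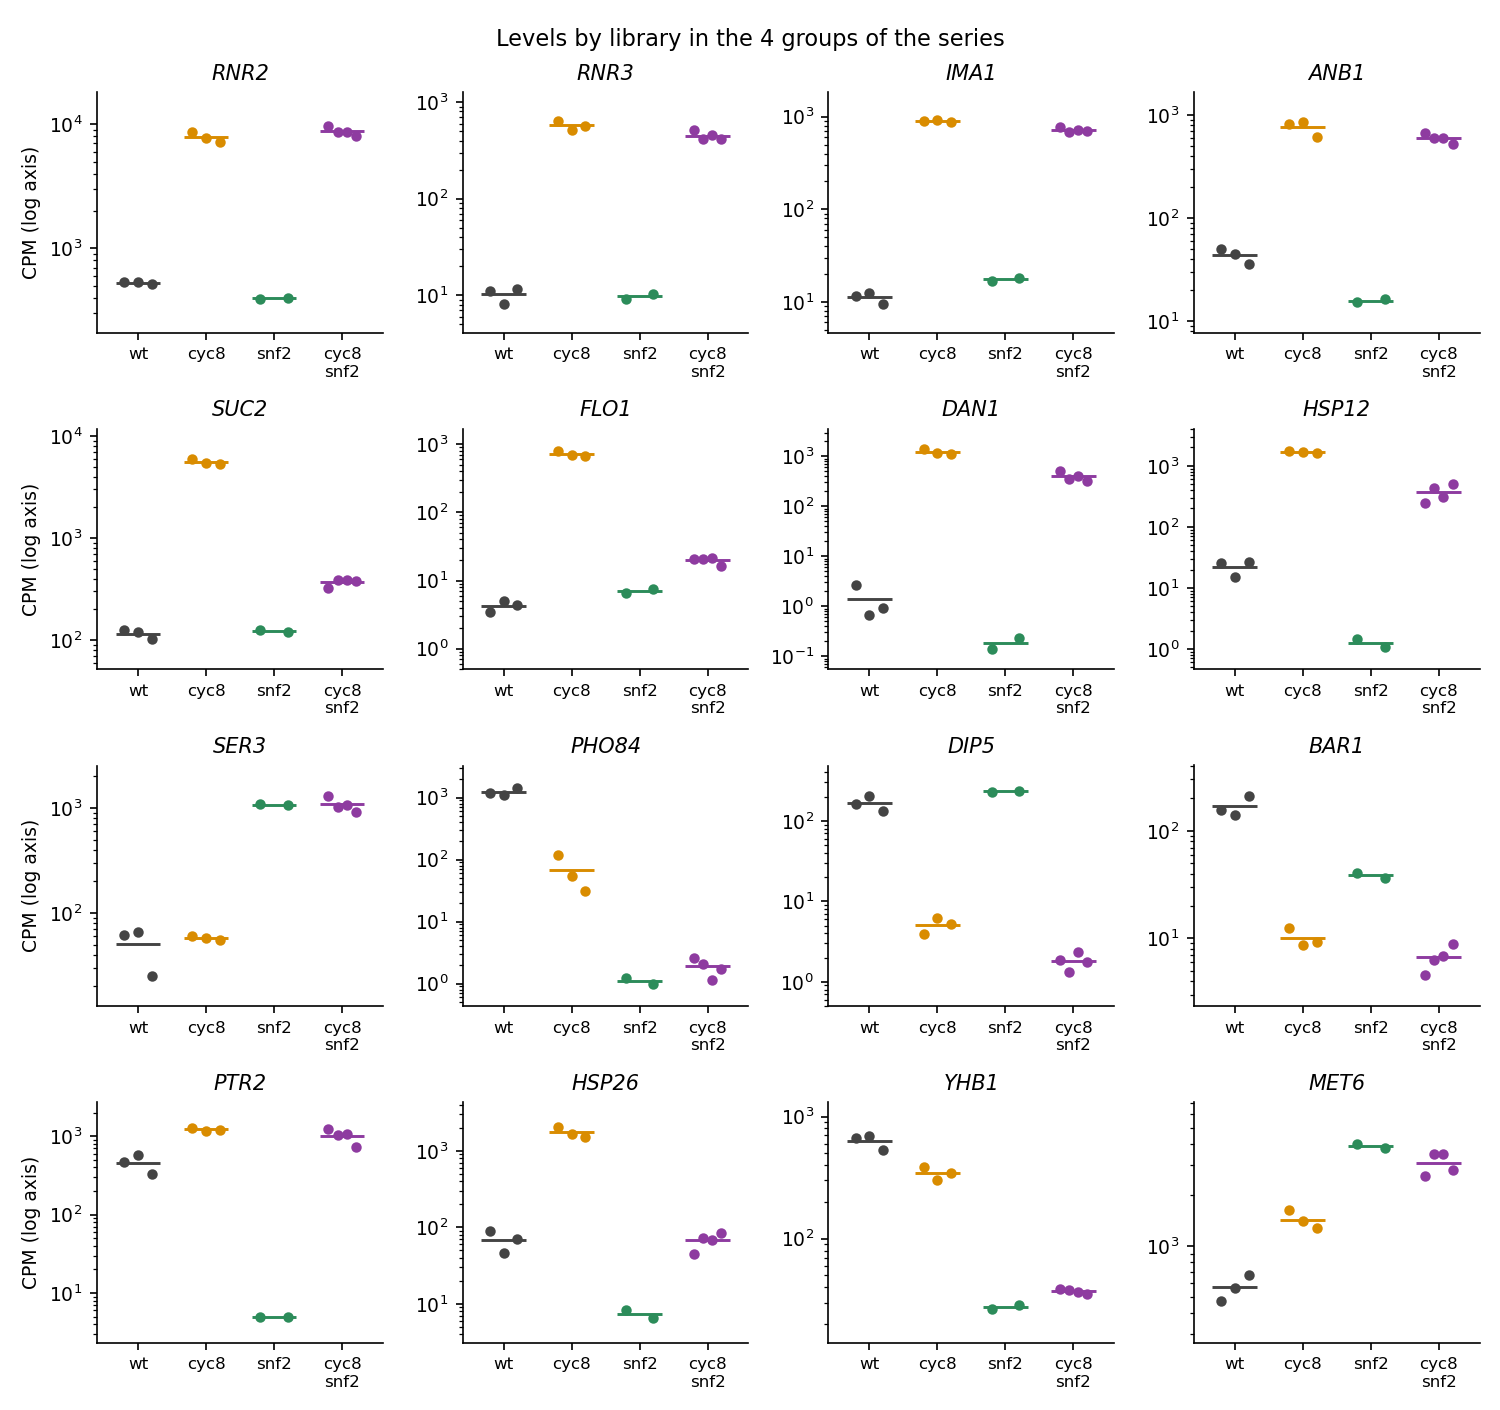
CPM on a log axis in each library of the 4 groups (wt, 3; cyc8, 3; snf2, 2; cyc8 snf2, 4) for 16 genes, with points for libraries and a line for the group mean. RNR2, RNR3, IMA1 and ANB1 in cyc8 snf2 lie near the cyc8 level, SUC2 and FLO1 lie between wt and cyc8, and SER3, PHO84 and YHB1 lie near the snf2 level. DIP5 is lower in cyc8 snf2 than in the other groups, and HSP26 lies in the range of wt.

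Protein genes of Ty retrotransposons were grouped after their values were seen, so their count is a description. Of 35 tested rows 30 were lower and none was higher, and their summed level was 545 to 670 CPM in the wt libraries and 35.6 to 40.1 CPM in the cyc8 snf2 libraries. The other 56 of 91 rows had too few counts to test. YLR256W-A, a Gag gene, had 89.0, 86.2 and 74.9 CPM in wt and 0.778, 0.804, 0.958 and 0.758 in cyc8 snf2 (-6.66 ± 0.13), and YMR045C, a Gag-Pol gene, had 53.1, 50.9 and 41.2 CPM in wt and 0.519, 1.00, 0.639 and 0.866 in cyc8 snf2 (-5.98 ± 0.21). Of the 50-base words of these genes 97.5% and 90.8% occur elsewhere, so that a row need not stand for its own copy. The snf2 means were 1.67 and 2.17 CPM, and the copies of these elements in FY2083 were not analysed here. Against the same wt libraries, 28 of the 35 rows were lower in cyc8, of the BY4741 background, and 23 in snf2. None was higher in either group, and 3.48% and 5.4% of all genes tested were lower.

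Ribosomal and histone genes served as a contrast. None of 137 ribosomal protein genes, 25 ribosome biogenesis genes or 10 histone genes was called. The ribosomal protein genes had a median log2 fold change of 0.21, and RPS14B, with 0.86 ± 0.12, moved most among them. The summed level of this list was 222274 to 223649 CPM in wt and 236885 to 281801 CPM in cyc8 snf2, without overlap. Other lists held calls. Of 12 cell cycle genes CLB1, a mitotic cyclin gene, was the one called (-1.70 ± 0.15). EGT2 and ASH1, 2 of 8 genes of daughter cell separation, were lower (-1.76 ± 0.12 and -1.05 ± 0.07). Of 14 purine synthesis genes 3 were lower, IMD2, which makes a GTP precursor, by 2.49 ± 0.20 on the log2 scale. INO1, the first enzyme of inositol synthesis, had 3.81, 4.90 and 3.30 CPM in wt and 15.3, 11.2, 10.2 and 7.96 in cyc8 snf2 (1.49 ± 0.22). Of the phospholipid genes CHO2, which methylates phosphatidylethanolamine, fell from 332 to 390 CPM to 96.9 to 111 CPM (-1.82 ± 0.09).

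By position, the share of higher genes was described without a test. Of 173 tested genes within 20 kb of an end, 69 were higher (39.9%) and 11 lower (6.36%), and another 73 rows there had too few counts. The share of higher genes was 41.5% within 10 kb, 38.9% from 10 to 20 kb, 22.6% from 20 to 30 kb and 4.81 to 10.2% in the bins farther in. Within 20 kb the median log2 fold change was 0.35, and PAU24, described above, lies there. VBA5, related to vacuolar amino acid transporters, had 2 counts in the wt libraries together and 4.20 to 23.7 CPM in cyc8 snf2. PAU19 and SNO4 had no count in wt and were at least 17.3-fold and 14.0-fold higher, at 3 counts per wt library as the limit. Of the 50-base words of VBA5, PAU19 and SNO4, 72.9%, 72.1% and 77.4% occur elsewhere.

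**Figure D4:**
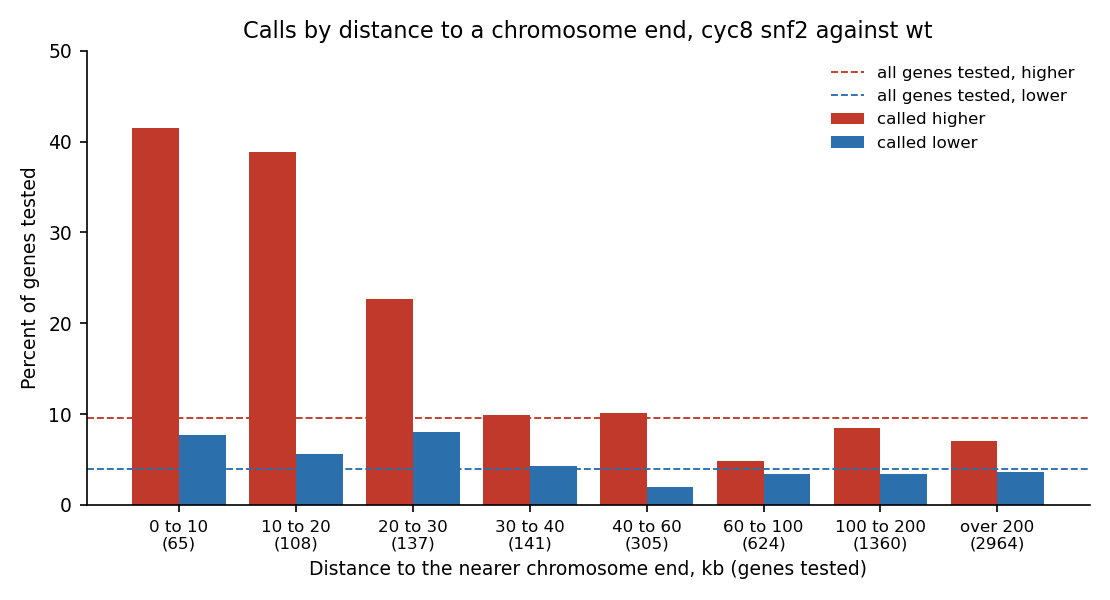
Percent of the tested genes called higher (red) or lower (blue) in cyc8 snf2 than in wt, by distance of the gene to the nearer chromosome end in kb, with the number of genes in brackets. Dashed lines show the shares over all genes tested. The red bars fall from 41.5% within 10 kb to 22.6% at 20 to 30 kb and stay at 4.81 to 10.2% farther in, while the blue bars reach at most 8.03%.

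The direct comparisons with the other mutant groups place these levels. The cyc8 libraries are of the BY4741 background, so that a difference of cyc8 snf2 from cyc8 cannot be told apart from one of background. The snf2 libraries share the FY2083 background with cyc8 snf2. Against cyc8, 54 genes (0.878%) were higher in cyc8 snf2 and 186 (3.02%) lower (3.9% in either direction), and against snf2 556 (9.04%) were higher and 190 (3.09%) lower. Genes such as ATR2 and SGA1 lay near the cyc8 level. ATR2, related to boron exporters (0.481 to 1.05 CPM in wt, 136 to 162 in cyc8 snf2, 166 in cyc8), and SGA1, a glucoamylase of sporulation (0.793 to 1.28 CPM in wt, 76.6 to 96.8 in cyc8 snf2, 96.2 in cyc8), differed from cyc8 by -0.17 and -0.13 log2 units (edgeR adjusted p = 0.273 and 0.429). A gene model on the opposite strand covers ATR2. Other genes lay between wt and cyc8 and below cyc8 by a called difference. Among these were SUC2, FLO1, PAU24, DAN1, TIR1, HSP12 and IME1, the master gene of meiosis, which had 4.93 to 5.49 CPM in wt, 11.2 to 13.9 in cyc8 snf2 and 63.3 in cyc8.

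Further genes lay near the snf2 level and far from cyc8. SER3 averaged 1079 CPM in cyc8 snf2 and 1077 in snf2, and PHO84 1.88 and 1.11. YHB1, a nitric oxide dioxygenase, and MRH1, a plasma membrane protein, belong here, and both were chosen after their values were seen. YHB1 had 667, 695 and 530 CPM in wt and 38.7, 37.9, 36.7 and 35.5 in cyc8 snf2, with means of 344 in cyc8 and 27.5 in snf2. MRH1 had 1383, 1556 and 1260 CPM in wt and 112, 98.5, 107 and 97.4 in cyc8 snf2, with means of 651 and 71.3.

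In HSP26 and PTR2 the single mutant groups lay on opposite sides of wt, and both genes were likewise chosen after their values were seen. HSP26 encodes a small heat shock protein and PTR2 the peptide transporter. HSP26 had 91.0, 46.9 and 69.7 CPM in wt and 44.8, 72.4, 68.9 and 83.9 in cyc8 snf2 (log2 fold change -0.04 ± 0.24, edgeR adjusted p = 0.909), with means of 1745 in cyc8 and 7.46 in snf2. The libraries of wt and cyc8 snf2 overlapped. The PTR2 level lay above wt, near that of cyc8. PTR2 had 471, 576 and 329 CPM in wt and 1233, 1040, 1061 and 736 in cyc8 snf2 (1.15 ± 0.19, or 0.96 and under the threshold without wt replicate 3), with means of 1219 in cyc8 and 4.90 in snf2.

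**Figure D5:**
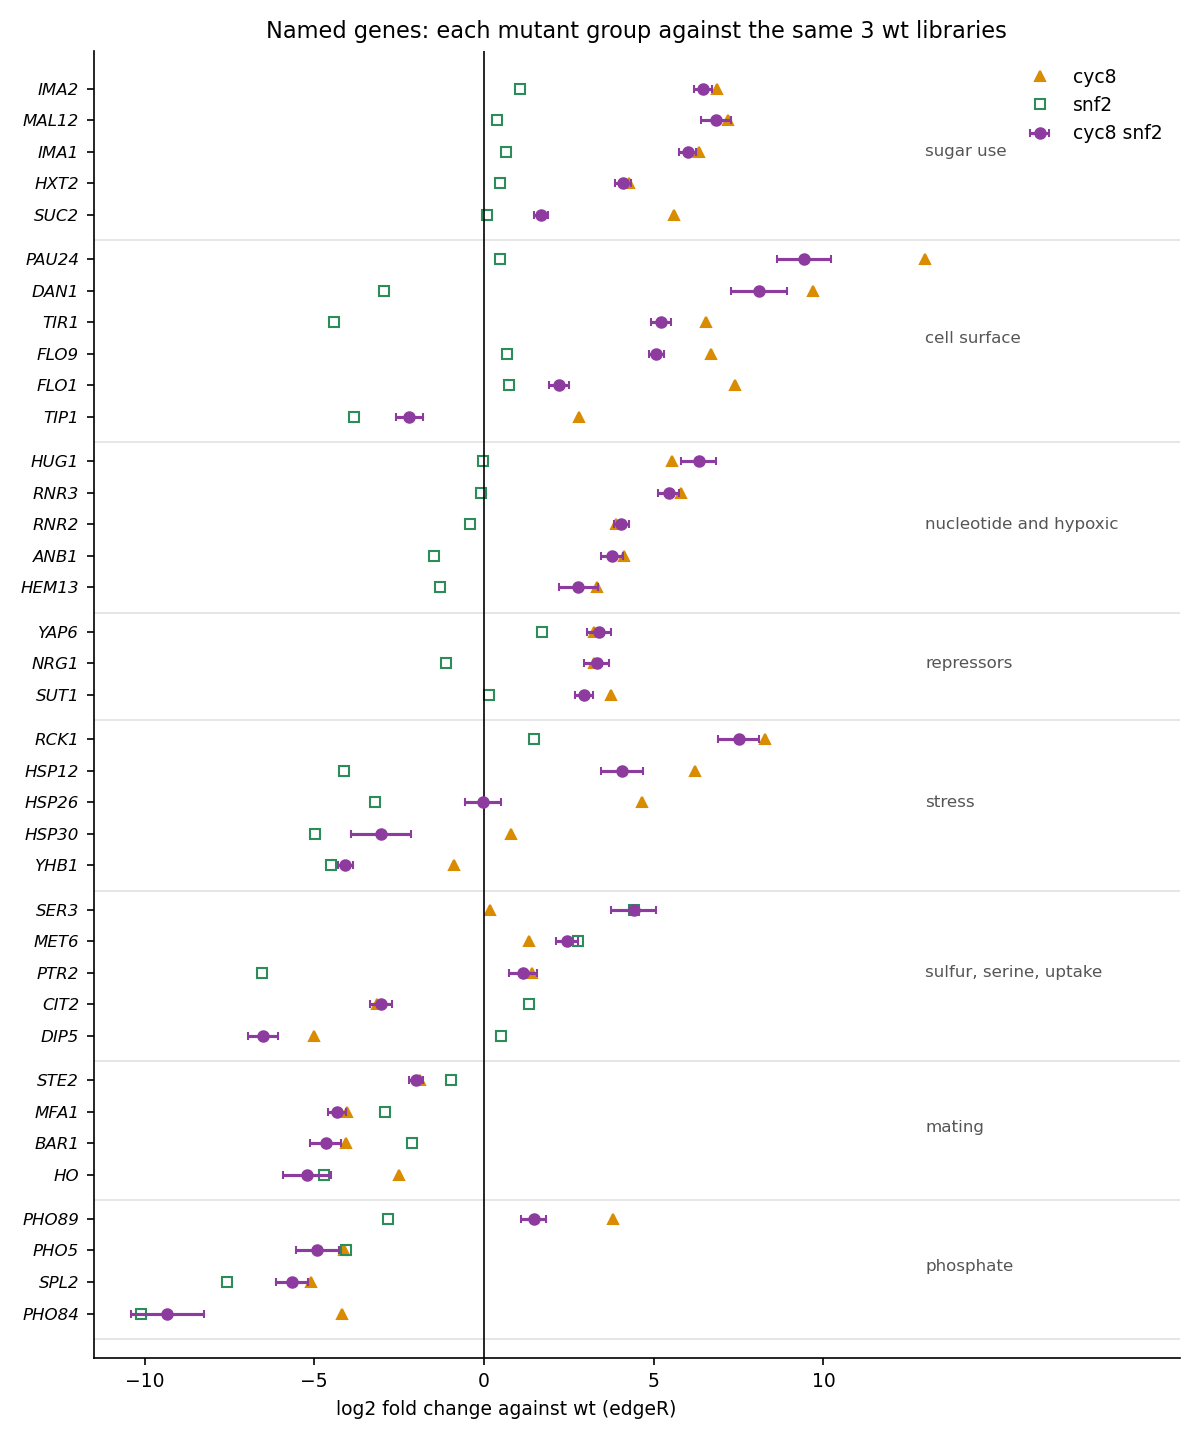
log2 fold changes against the same 3 wt libraries for 37 genes by group, with circles for cyc8 snf2 (bars, 95% confidence interval), triangles for cyc8 and open squares for snf2. As the 3 comparisons share the wt libraries, their values are set side by side and not correlated. Circles of RNR2, HXT2 and NRG1 lie on the triangles, those of SER3 and YHB1 near the squares, and that of HSP26 near 0 between both.

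Few genes in cyc8 snf2 stood outside all the other groups. By a called difference from wt, cyc8 and snf2 in the same direction, 14 genes (0.228%) were higher and 15 (0.244%) lower, among the higher the marker URA3. YGR050C, a small open reading frame without a name in the table, had 8.61 to 11.9 CPM in wt, 48.7 to 75.3 in cyc8 snf2, 19.8 in cyc8 and 22.4 in snf2. YDR042C, likewise unnamed, had 10.6 to 11.1 CPM in wt, 39.0 to 46.5 in cyc8 snf2, 17.9 in cyc8 and 14.6 in snf2. Opposite-strand gene models overlap 50.8% of YGR050C and 37.2% of YDR042C. Among the lower genes were DIP5, with means of 5.10 CPM in cyc8 and 233 in snf2, and URA1, the dihydroorotate dehydrogenase of pyrimidine synthesis. URA1 had 579, 611 and 595 CPM in wt and 223, 245, 242 and 239 in cyc8 snf2, with means of 482 in cyc8 and 895 in snf2 (log2 fold change against wt -1.32 ± 0.06). By the genotypes given, the cyc8 snf2 strain has a URA3 marker, and the wt, cyc8 and snf2 strains have none. The part of this difference in the URA1 level was not tested. FRE7, a copper-regulated reductase, fell from 6.13 to 15.8 CPM in wt to 0.208 to 1.52 CPM, against means of 3.39 in cyc8 and 7.69 in snf2 (-3.83 ± 0.46, or -4.44 without cyc8 snf2 replicate 4).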

How the data were processed

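Per the labels' protocols, RNA was sequenced as read pairs on an Illumina HiSeq. One table of read counts per gene, not normalised, was deposited by the authors for 12 libraries. STAR and featureCounts and the build R64 appear in the submitters' processing notes, with no versions, and nothing used here states the strand setting. Rows of ribosomal RNA (12, with 2 counts in all) were left out, and the 55 mitochondrial rows were kept in library sizes and, where tested, in the fit, but not in the counts of genes. Library totals ran from 16378131 to 27230570, and p-values and intervals cover the spread between libraries only.

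Groups came from the labels. One edgeR 4.0.16 quasi-likelihood fit (R 4.3.3, robust dispersions, TMM scaling, filterByExpr) over all 12 libraries gave the contrasts, with Benjamini-Hochberg adjustment over the 6171 rows tested. The floor for genes without counts was 3 counts per library. On simulated counts for 6105 genes the fit of cyc8 snf2 against wt recovered 96.1% of changes of 1.5 and 98.0% of changes of 3 on the log2 scale, with 0 false calls. The simulated counts used the spread estimated from these libraries, and 200 genes were changed, up or down at random. They check that the fit works and cannot give the error rate in the data. Alternatives were other scalings, filters, libraries, thresholds, a replicate block, limma 3.58.1 (voom) and DESeq2 1.42.0.

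Named genes were those of the genotypes, the markers, up to 4 members of each of 51 lists with the largest change, the 15 highest and 15 lowest called genes, up to 8 per direction outside every other group, and 13 well-known targets. Others are marked in the text. The members and lists were chosen with earlier results of these data known. Repeated sequence was measured as the share of 50-base words of a gene found elsewhere in the genome.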

Additional observations from a re-analysis of the deposited data

Results flagged for a closer look

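Among 120 genes screened, 7 had 1 cyc8 snf2 library far from the other 3; chance flags about 1 in 20 groups of 4. The lowest library stood apart for FLO1 (16.1 CPM), RGT2 (48.0 CPM), STE2 (112 CPM) and SUC2 (325 CPM). The highest stood apart for HSP30 (39.0 CPM), HXT2 (6554 CPM) and the marker HIS3 (0.128 CPM). In each of these genes all cyc8 snf2 libraries stayed on the same side of every wt library.

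Mitochondrial rows, which were left out of the counts of genes, took 0.270% to 0.335% of the counts in the cyc8 snf2 libraries and 0.133% to 0.175% in the wt libraries. The ranges were 0.189% to 0.242% in cyc8 and 0.228% to 0.300% in snf2.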

How the results depend on the processing

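The counts of 588 higher and 245 lower genes, and of 29 genes outside every other group, stayed within 1.5 times under each alternative run except those on the fold threshold. The count of 29 was not run on the 7 compared libraries alone, which lack the other groups, nor without a cyc8 or snf2 library. Without a fold threshold they were 1548, 1579 and 271, and at a log2 change of at least 2 they were 256, 87 and 2, by construction of the threshold. Leaving out 1 library gave 569 to 593 higher, 238 to 258 lower and 23 to 32 outside genes. With the replicate block they were 582, 250 and 25. Deviations from the group means correlated with r = 0.21, -0.13 and -0.13 between same-numbered wt and cyc8 snf2 libraries. Pairs with different numbers ran from -0.36 to 0.39, so these values cannot show whether the numbers pair the libraries. Of 2155 alternative values of 120 named genes 2140 kept direction and side of the threshold, 12 fell below it, 1 passed it and 2 reversed. The reversed values are of HSP26, which was not called: its values with 1 library left out ran from -0.25 to 0.21, with 0.21 without wt replicate 1 and 0.12 without cyc8 snf2 replicate 1. The cause was not tested. CIS3 (0.99) also missed the threshold with the block. Under upper-quartile scaling the median log2 change shifted by -0.08, and 65.4% of calls were higher against 70.6%. Each strain is 1 line and its background differs with the label, and depth limits genes with few wt counts to lower bounds.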
